A study of Mus musculus with 48 samples.

Results

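This comparison asks what the loss of KAT6A added to the loss of KAT6B during neural differentiation: 3 double knockout libraries were set against 3 KAT6B knockout libraries, all from day 6, out of 48 libraries in the series. The samples were chosen by their labels alone, and every gene was examined. All lines derive from the mouse embryonic stem cell line E14. The double knockout lacks KAT6A and KAT6B by its label, the KAT6B knockout lacks KAT6B, and the other 2 genotypes of day 6, the KAT6A knockout and the E14 control, entered the fit with 3 libraries each. All 12 cultures had been taken out of LIF, the cytokine that holds stem cells undifferentiated, grown as floating embryoid bodies and given 10 µM all-trans retinoic acid from day 4. The series describes its 3 replicates as independent differentiation experiments, and how many clones stand behind each line is not given in the sources used here. RNA was depleted of ribosomal RNA and sequenced in bulk, so that fewer cells of a type and less RNA per cell cannot be told apart in any value below.

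KAT6A and KAT6B are paralogous lysine acetyltransferases of the MYST family. Each works in a complex with a BRPF scaffold protein, ING5 and MEAF6, and modifies histone H3 at active and developmentally regulated genes. Embryoid bodies under retinoic acid are a mixture in which neural progenitors form beside cells of extraembryonic endoderm and mesoderm. Levels below are CPM, the counts of a gene per mega counts of its library, scaled by trimmed means, and differences are log2 values, double knockout minus KAT6B knockout, ± standard error.

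No gene of 20533 tested passed an adjusted p of 0.05 in edgeR's quasi-likelihood test (0% called), and the smallest adjusted p, 0.0529, was shared by 25 genes. At an unadjusted p under 0.05 there were 2674 genes (13.0%), of which 1749 were higher and 925 were lower in the double knockout (8.52% and 4.50% of those tested). In 11.5% of genes the 3 double knockout libraries lay above the 3 KAT6B knockout libraries without overlap, and in 9.13% they lay below them (20.7% in all). DESeq2 called 654 genes on the same counts, and edgeR called 93 without E14 replicate 2, 2 without KAT6A knockout replicate 2 and 1 without double knockout replicate 3. The genes below are given as measured differences that did not pass the main test, and a count of list members is to be read against these percentages. The median difference of all genes was -0.025, and 46.8% of them had a difference above 0. Depth was 36.08 to 57.54 M (mega) counts in the double knockout and 30.55 to 43.35 M in the KAT6B knockout. KAT6B knockout replicate 1 stood apart from every other day 6 library on the first principal component (82.5, against 35.6 and 34.7 for its 2 replicates and -33.8 to 10.5 for the double knockout), and that component held 32.8% of the variance.

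Kat6a (ENSMUSG00000031540, chromosome 8, 23349551 to 23433275, plus strand, GRCm39) was the check of the labels. It stood at 132, 126 and 142 CPM in the double knockout and at 200, 177 and 198 CPM in the KAT6B knockout. The KAT6A knockout libraries had 130, 110 and 148 CPM and the E14 libraries 185, 180 and 219 CPM, so the 6 libraries labelled as lacking KAT6A lay below the 6 others. The difference was -0.52 ± 0.13 (edgeR adjusted p = 0.106). It had the same sign and groups that did not overlap at days 0, 2 and 15 as well (-0.60, -0.46 and -0.48, adjusted p of 0.15, 0.294 and 0.895). The transcript was thus lower but still abundant, and a count over a whole gene does not show which exon was edited or whether protein was made.

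Kat6b (ENSMUSG00000021767, chromosome 14, 21531502 to 21722546, plus strand), lost by label in both lines, was at 96.8, 104 and 123 CPM in the double knockout and at 90.9, 99.4 and 98.4 CPM in the KAT6B knockout. These groups overlapped, with a difference of 0.16 ± 0.15 (adjusted p = 0.675). Among the other 12 genes of the KAT6 complexes and MYST family, Jade1, a scaffold subunit of the KAT7 complex, was at 344, 343 and 295 CPM in the double knockout against 150, 249 and 236 CPM, a difference of 0.63 ± 0.21 (adjusted p = 0.211). All 3 double knockout libraries lay above the KAT6B knockout libraries for Jade1. The scaffolds Brpf1, Brd1 and Brpf3 differed by 0.09, -0.12 and 0.03, and Kat7, the closest relative outside the pair, by 0.05 (adjusted p = 0.884). Of the 14 genes 1 was higher and 2 were lower at an unadjusted p under 0.05 (background 8.52% and 4.50%).

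Interferon-stimulated genes lay together on the higher side. These genes encode antiviral and antigen-presentation proteins. They are induced when interferon receptors activate a complex that holds STAT2 and IRF9 and binds a promoter element called the interferon-stimulated response element. The list of 60 was written after some of its members had been seen among the smallest p-values, so it is a description and no independent evidence. Of 60 members, all measured, 50 were higher and 1 was lower at an unadjusted p under 0.05 (background 8.52% and 4.50%), and 49 had double knockout libraries wholly above the KAT6B knockout libraries (background 11.5%). The median difference was 1.02, against -0.025 for all genes. Without the 10 members seen beforehand, 40 of 50 were higher and the median was 0.996.

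The core element, GAAANNGAAA on either strand, was searched in RefSeq promoter windows of the GRCm38.p6 build that reach from 250 bases before to 50 bases after a gene's start. Of the 60 genes 44 had a window, and 20 of these (45.5%) held the element, against 3.99% of 27025 genes and 3.44% of all windows. The list was written of genes known to be induced through this element. Its excess over all genes is thus a trait of the list and no result of this comparison. Of the 10 genes named as higher below, 6 had a window and 1, Slfn5, held the element; of the 10 named as lower, 5 had a window and 0 did. A match is a description of letters and does not show a bound factor. The 250 bases before the start are printed for 4 members that differ in how many copies they hold, 5′ to 3′ along the gene, with matches on either strand in capitals. Isg15 (chr4:156200819-156201068, minus strand) held 3 overlapping copies, Ifit1 (chr19:34640639-34640888, plus strand) held 2, and Slfn5 (chr11:82951852-82952101, plus strand) and Gbp7 (chr3:142530086-142530335, plus strand) held 1 each.
Isg15: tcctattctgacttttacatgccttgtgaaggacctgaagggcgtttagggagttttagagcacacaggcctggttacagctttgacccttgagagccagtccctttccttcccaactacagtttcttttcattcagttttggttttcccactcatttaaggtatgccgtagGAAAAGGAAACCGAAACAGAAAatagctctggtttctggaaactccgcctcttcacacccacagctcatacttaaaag
Ifit1: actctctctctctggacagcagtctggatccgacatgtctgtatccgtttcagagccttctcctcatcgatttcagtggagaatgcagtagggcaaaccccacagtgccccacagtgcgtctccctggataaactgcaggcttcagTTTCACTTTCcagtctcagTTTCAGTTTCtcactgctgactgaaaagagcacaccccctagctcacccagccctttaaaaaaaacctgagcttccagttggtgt
Slfn5: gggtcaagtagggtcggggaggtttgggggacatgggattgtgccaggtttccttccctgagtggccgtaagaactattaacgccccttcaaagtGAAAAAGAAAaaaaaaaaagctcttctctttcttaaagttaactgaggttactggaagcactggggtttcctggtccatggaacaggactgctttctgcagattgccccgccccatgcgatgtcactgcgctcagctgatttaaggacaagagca
Gbp7: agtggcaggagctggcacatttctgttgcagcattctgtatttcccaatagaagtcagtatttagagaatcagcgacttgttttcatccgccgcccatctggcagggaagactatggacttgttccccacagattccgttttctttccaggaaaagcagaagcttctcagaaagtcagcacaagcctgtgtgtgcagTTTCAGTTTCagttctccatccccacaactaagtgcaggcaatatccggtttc

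Isg15, a ubiquitin-like modifier, was at 20.7, 12.8 and 22.8 CPM in the double knockout and at 2.06, 8.33 and 6.01 CPM in the KAT6B knockout. Its lowest double knockout library thus lay above its highest KAT6B knockout library, and the difference was 1.77 ± 0.40 (adjusted p = 0.0907). Ifit1, which binds foreign RNA caps, was at 11.8, 7.83 and 15.7 CPM against 2.43, 6.43 and 4.83 CPM, a difference of 1.37 ± 0.35 (adjusted p = 0.121). The GTPase gene Gbp7 was at 22.9, 22.1 and 29.2 CPM against 5.13, 10.1 and 12.8 CPM (1.40 ± 0.26, adjusted p = 0.0622). Slfn5, of the Schlafen family, was at 11.2, 9.01 and 10.6 CPM against 2.63, 3.95 and 4.22 CPM (1.50 ± 0.24, adjusted p = 0.0529). In each of the 4 genes the groups did not overlap, and replicate 1 was the lowest of the KAT6B knockout libraries.

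The regulators of the pathway were among the members that differed. Irf7, the transcription factor that amplifies interferon production, was at 6.48, 2.74 and 5.68 CPM in the double knockout and at 0.337, 0.901 and 0.941 CPM in the KAT6B knockout (2.75 ± 0.45, adjusted p = 0.0529). Irf1, another activator of the pathway, was at 94.3, 78.0 and 76.9 CPM against 34.5, 51.9 and 49.7 CPM (0.87 ± 0.17, adjusted p = 0.0648). Stat2 and Irf9, which bind promoters of these genes in 1 complex, differed by 0.45 and 0.33 (adjusted p of 0.244 and 0.284). Of these 4 regulators Irf7, whose level was low in every library, had the largest difference and Irf9 the smallest.

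Sensors and effectors followed the same direction. Ifih1, a cytoplasmic sensor of double-stranded RNA, was at 9.74 ± 2.02 CPM (SD, n = 3) in the double knockout and 4.57 ± 1.08 CPM in the KAT6B knockout, and Zbp1, a sensor of Z-form nucleic acid, at 4.04 ± 1.19 and 0.922 ± 0.623 CPM. The oligoadenylate synthetase Oas2 differed by 2.48 ± 0.41 (adjusted p = 0.0529), and the antiviral enzyme Rsad2 by 1.46 ± 0.30. Of the immunoproteasome subunits, Psmb8 differed by 1.49, Psmb9 by 1.28 and Psmb10 by 0.69. A negative difference was found in 3 of the 60 members. These were Slfn2, under 1 CPM on average in both genotypes (-0.54, adjusted p = 0.812), B2m, the light chain of MHC class I, at 47.0 ± 5.59 CPM against 47.2 ± 13.1 CPM (-0.01), and the chemokine gene Cxcl10, at 5.82, 4.49 and 5.00 CPM against 7.59, 12.5 and 6.32 CPM (-0.79 ± 0.28, adjusted p = 0.253). Cxcl10 was the 1 member of the list with lower double knockout libraries at an unadjusted p under 0.05. The Oas1 and Gbp genes have close paralogs, so counts may be shared among them.

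**Figure D1:**
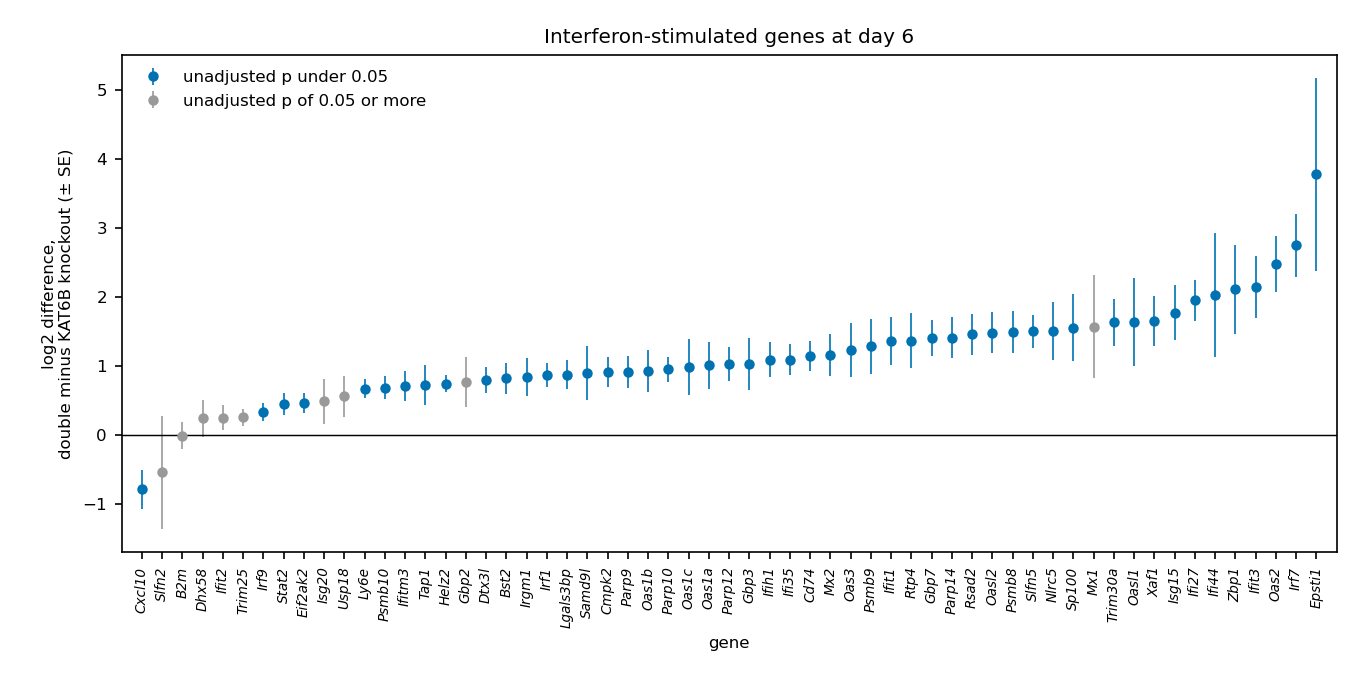
Log2 difference between double and KAT6B knockout at day 6 for 59 of the 60 interferon-stimulated genes, ordered by size; points are edgeR estimates and bars standard errors. Blue points have an unadjusted p under 0.05; 49 of them lie above 0 and 1, Cxcl10, below.

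Summed over the list, interferon-stimulated genes stood at 1528, 1274 and 1614 CPM in the double knockout and at 684, 994 and 936 CPM in the KAT6B knockout. The KAT6A knockout had 1207, 1120 and 1035 CPM and E14 785, 952 and 790 CPM, so the 3 double knockout libraries lay above all 9 others. Between the KAT6A knockout and E14 27 of the 60 members were higher at an unadjusted p under 0.05 (background 2.19%) and the median difference was 0.654. The difference between the 2 contrasts reached an unadjusted p under 0.05 in 12 of 60 members (background 6.51%), and in 0 of them an adjusted p of 0.05. Without the 10 members seen beforehand, which were chosen on the first part of this contrast, it did so in 3 of 50. Without KAT6B knockout replicate 1, whose sum was the lowest of the 12, 44 of 60 members were higher and the median was 0.822.

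**Figure D2:**
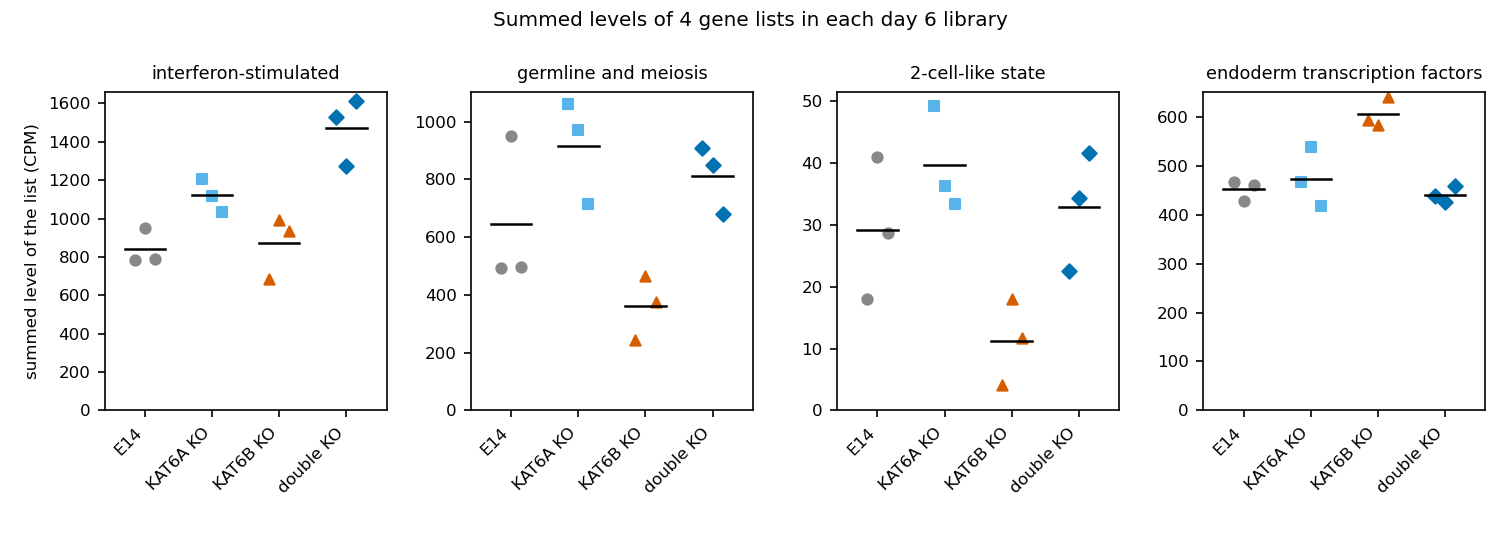
Summed level (CPM) of 4 gene lists in each of the 12 day 6 libraries; points are libraries and lines group means, with axes from 0. The 3 double knockout libraries lie above the 9 others for interferon-stimulated genes, and the 3 KAT6B knockout libraries lie below them for germline genes and above them for endoderm transcription factors. Most of the gap between double and KAT6B knockout lies in Stra8 for germline genes and in Gata4 and Gata6 for endoderm transcription factors.

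Germline genes also lay on the higher side. Of 18 members 11 were higher and 0 lower at an unadjusted p under 0.05 (background 8.52% and 4.50%), and the median was 1.05. Stra8, the retinoic acid-induced gatekeeper of meiosis, was at 563, 524 and 419 CPM in the double knockout and at 137, 260 and 211 CPM in the KAT6B knockout (1.31 ± 0.29, adjusted p = 0.0907). Tex19.1, which acts in transposon control in germ cells, was at 71.4, 63.0 and 51.2 CPM against 18.4, 30.9 and 22.0 CPM (1.38 ± 0.25, adjusted p = 0.0622). The X-linked homeobox genes Rhox6 and Rhox9 differed by 1.64 ± 0.34 and 1.53 ± 0.28, and Dmrt1, a regulator of male germ cells, by 0.81 ± 0.34 (adjusted p = 0.339). For Stra8 and Tex19.1 the groups did not overlap. The summed list stood at 907, 848 and 681 CPM in the double knockout and 245, 464 and 376 CPM in the KAT6B knockout, while E14 had 492 to 948 CPM and the KAT6A knockout 716 to 1062 CPM. Here the KAT6B knockout lay below all 9 other libraries, and the double knockout lay within the range of the other 2 genotypes. Stra8 alone held most of the sum in every library of the double and the KAT6B knockout. Without KAT6B knockout replicate 1, 6 of 18 members were higher and the median was 0.799. Of the 18, 7 were higher without double knockout replicate 1 or replicate 2.

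Genes of the 2-cell-like state, a rare stem cell state that resembles the early embryo, had the highest list median, 1.54 over the 8 members measured of 13. Of these 7 were higher and 0 lower at an unadjusted p under 0.05 (background 8.52% and 4.50%). Zscan4c, which acts in telomere maintenance, was at 3.94, 6.20 and 7.88 CPM in the double knockout and at 0.945, 3.46 and 1.91 CPM in the KAT6B knockout (1.50 ± 0.41, adjusted p = 0.145). Usp17la, a deubiquitinase gene, was at 3.89, 3.53 and 3.75 CPM against 0.472, 1.07 and 1.28 CPM (1.96 ± 0.43, adjusted p = 0.0866). Sp110, a nuclear body protein gene of this list, differed by 1.86 ± 0.39 (adjusted p = 0.0742). Its difference at day 6 exceeded that at day 0 by 2.33 ± 0.71 (edgeR, all 48 libraries, adjusted p = 0.638). That value was 0.23 for Zscan4c and 0.31 for Usp17la, and 2.09 for Isg15 of the interferon list. Whether Sp110 belongs with either list in these cells was not tested. Levels were low: the list summed to 22.6 to 41.6 CPM in the double knockout, 4.12 to 18.1 CPM in the KAT6B knockout and 18.0 to 41.0 CPM in E14. Members of the Zscan4 and Usp17 families are near-identical copies, and how reads were split among them is not given in the sources used here. Without KAT6B knockout replicate 1, 6 members were higher and the median was 1.17.

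The genes named as lower included regulators of primitive and definitive endoderm. Gata4 (ENSMUSG00000021944, chromosome 14, 63436371 to 63509141, minus strand), a zinc finger factor of endoderm and heart, was at 59.1, 54.1 and 71.9 CPM in the double knockout and at 174, 144 and 128 CPM in the KAT6B knockout. The difference was -1.27 ± 0.21 (adjusted p = 0.0529), and the KAT6A knockout (66.6, 107 and 57.0 CPM) and E14 (71.1, 56.8 and 73.2 CPM) lay with the double knockout. Gata6 (ENSMUSG00000005836, chromosome 18, 11052064 to 11085635, plus strand), its partner in primitive endoderm, was at 80.6, 70.8 and 90.9 CPM against 137, 137 and 166 CPM (-0.86 ± 0.14, adjusted p = 0.0529). Gata6os, which is transcribed from the opposite strand and overlaps the start of Gata6 (10987944 to 11052936), was at 4.92, 6.32 and 8.81 CPM against 16.3, 20.0 and 20.8 CPM (-1.51 ± 0.26, adjusted p = 0.0529). The strand setting of the counting is not given in the sources used here, so reads of the overlap may belong to either gene. For all 3 genes the KAT6B knockout libraries were the highest of the 12, and the naming rule required them to lie above the double knockout.

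Of the 16 endoderm transcription factors, 5 were lower and 1 was higher at an unadjusted p under 0.05 (background 4.50% and 8.52%), and the median was -0.104. Besides Gata4 and Gata6, the pioneer factor Foxa1 was at 21.9, 18.1 and 22.9 CPM against 51.0, 44.6 and 32.6 CPM (-1.03 ± 0.31, adjusted p = 0.183). Hnf4a, the hepatic and visceral endoderm receptor, differed by -0.69 ± 0.24 and Foxa3 by -0.72 ± 0.26. Elf3, an epithelial ETS factor, was the member on the other side, with 0.75 ± 0.21 (adjusted p = 0.143). The summed list was at 438, 426 and 459 CPM in the double knockout and at 594, 584 and 640 CPM in the KAT6B knockout, above all 9 other libraries. Most of the gap between these sums lay in Gata4 and Gata6, which were named for their small p. The sum therefore does not describe the list as a whole. Of the 16, 3 were lower without double knockout replicate 2. Foxa2, which belongs to the list of neural tube patterning genes, was at 13.5, 13.6 and 16.6 CPM against 30.7, 26.6 and 23.2 CPM (-0.88 ± 0.20, adjusted p = 0.0962).

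Proteins of yolk sac and visceral endoderm had negative differences in 16 of 24 measured genes and positive ones in 8. Of all genes tested, 46.8% had a positive difference. Of these 24, 7 were lower and 1 was higher at an unadjusted p under 0.05 (background 4.50% and 8.52%), with a median of -0.386. Ttr, the thyroid hormone carrier, was at 5.70 ± 3.61 CPM in the double knockout and 18.5 ± 6.54 CPM in the KAT6B knockout, and Apoa1, the main protein of high-density lipoprotein, at 14.2 ± 3.69 and 39.7 ± 8.29 CPM. The endocytic receptor gene Lrp2 differed by 0.77 (adjusted p = 0.576), and by 0.49 without double knockout replicate 2. Its partner Cubn differed by 0.34 (adjusted p = 0.862), by 0.00605 without KAT6B knockout replicate 1 and by -0.0365 without double knockout replicate 2. Pdgfra, a receptor of primitive endoderm and mesenchyme, was at 43.8, 64.3 and 119 CPM against 179, 177 and 198 CPM (-1.28 ± 0.28, adjusted p = 0.0907).

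The remaining genes named as lower by their unadjusted p had groups that did not overlap, which the naming rule required. Clic6, a chloride channel family gene, was at 40.5, 28.7 and 47.3 CPM in the double knockout against 76.7, 108 and 91.8 CPM (-1.24 ± 0.20). The carbonic anhydrase gene Car4 was at 62.4, 45.9 and 52.6 CPM against 108, 202 and 146 CPM (-1.50 ± 0.26). Enpp1, an ectoenzyme that makes pyrophosphate, was at 14.2, 16.4 and 23.7 CPM against 47.5, 47.8 and 38.5 CPM (-1.30 ± 0.23). The adjusted p of each of these 3 genes was 0.0529. Lpl, the lipoprotein lipase gene, differed by -1.04 ± 0.19, the secreted Wnt antagonist gene Sfrp5 by -0.99 ± 0.18, Frem2, a basement membrane protein gene, by -1.07 ± 0.20 and Epb41l3, a membrane skeleton gene, by -0.64 ± 0.11. In 9 of these 10 genes, Gata4, Gata6 and Gata6os included, the 3 KAT6B knockout libraries lay above all 9 other libraries of day 6, with Car4 as the exception. In 1 of 10, Epb41l3, the double knockout lay below all others. The naming rule fixed the order of double against KAT6B knockout, so only the KAT6A knockout and E14 libraries were free in these counts.

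The remaining genes named as higher included several outside the interferon list. Tmem92, a membrane protein gene, was at 13.5, 11.4 and 13.7 CPM in the double knockout and at 2.16, 4.24 and 3.21 CPM in the KAT6B knockout (2.00 ± 0.31). Epn3, an endocytic adaptor gene of epithelia, was at 14.8, 18.1 and 14.5 CPM against 5.57, 6.63 and 6.08 CPM (1.37 ± 0.22). Trim16, a gene for a stress-responsive ubiquitin ligase, was at 14.6, 16.7 and 16.7 CPM against 5.77, 7.97 and 8.33 CPM (1.12 ± 0.18). Col1a2, a chain of type I collagen, was at 114, 95.0 and 74.0 CPM against 52.1, 41.3 and 42.7 CPM (1.05 ± 0.18). Col1a1, also a chain of type I collagen but not among the 10, differed by only 0.00449 to 0.374 over the 19 alternative settings. It was called in 0 of them. The 10 genes also held Ifi27 (1.95 ± 0.29), Helz2 (0.75 ± 0.13), Wfikkn1 (0.90 ± 0.16), Clstn3 (0.84 ± 0.15) and the neuronal vesicle adaptor gene Ap3b2 (0.73 ± 0.13). All 10 had an adjusted p of 0.0529. In 5 of the 10 (Slfn5, Epn3, Trim16, Helz2 and Clstn3) the double knockout lay above all 9 other libraries, and in 5 (Tmem92, Wfikkn1, Clstn3, Ap3b2 and Col1a2) the KAT6B knockout lay below all 9 others. Here too the order of double against KAT6B knockout was fixed by the naming rule.

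**Figure D3:**
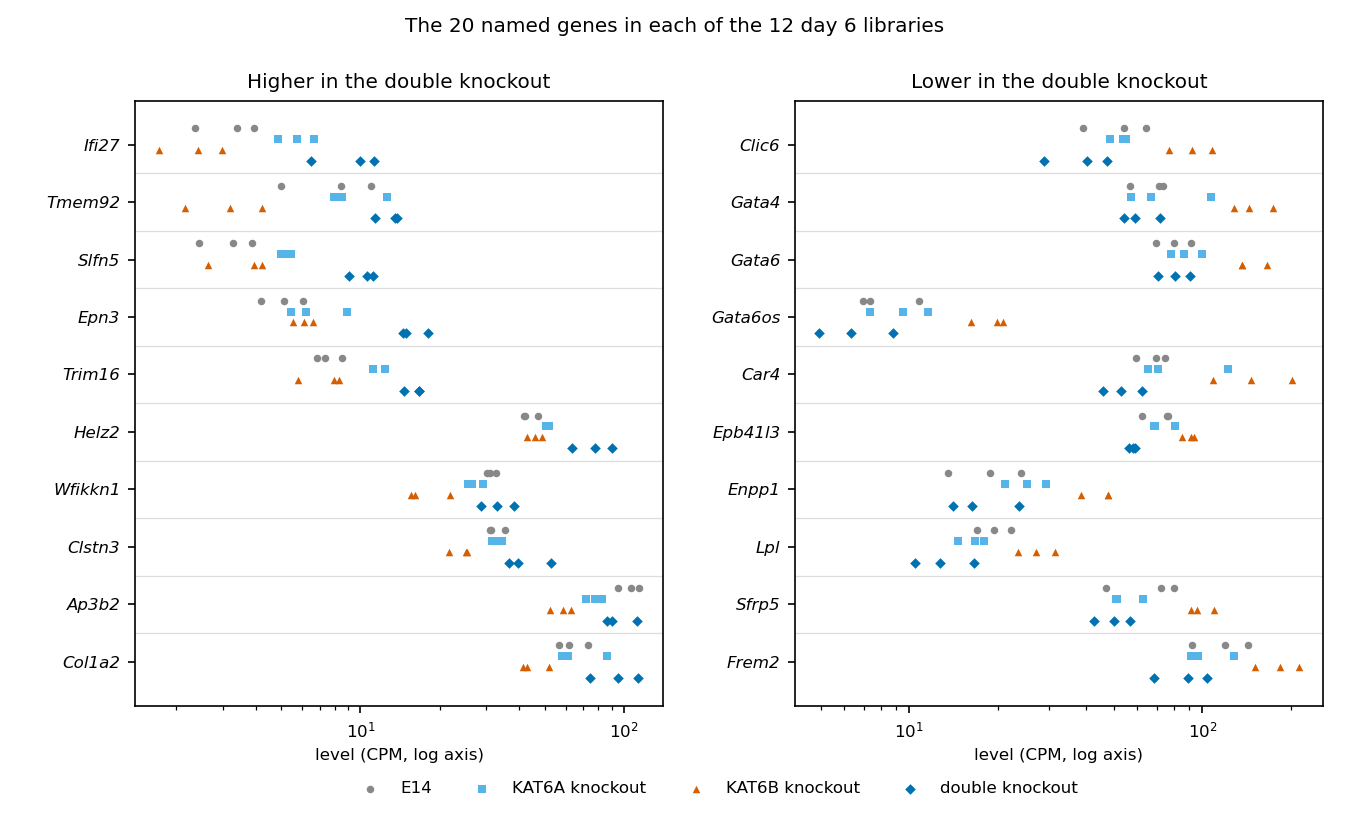
Levels (CPM, log axis) of the 10 genes with the smallest p in each direction, in every day 6 library of the 4 genotypes; each symbol is 1 library. Among the 10 lower genes the KAT6B knockout lies to the right of the 9 other libraries in 9, and among the 10 higher genes the double knockout lies to the right of them in 5. The genes were chosen so that the double and KAT6B knockout libraries do not overlap.

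Whether the addition of KAT6A loss had a different effect in the absence of KAT6B was tested as an interaction, (double minus KAT6B knockout) minus (KAT6A knockout minus E14). It called 0 of 20533 genes in edgeR, with a smallest adjusted p of 0.324 for Ap3b2, and 1336 genes (6.51%) had an unadjusted p under 0.05. DESeq2 called 56, and edgeR called 1 without KAT6A knockout replicate 3. Ap3b2 was at 90.4, 112 and 86.1 CPM in the double knockout, 62.7, 52.2 and 58.9 CPM in the KAT6B knockout, 71.9, 77.4 and 82.9 CPM in the KAT6A knockout and 114, 95.3 and 106 CPM in E14. Loss of KAT6A thus went with a positive difference where KAT6B was absent (0.73) and a negative one where it was present (-0.44). For Gata4 the interaction was -1.47 and for Gata6 -0.99, each with an adjusted p of 0.39. These genes were chosen on the first part of the contrast, so their interaction values are no independent evidence.

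Of the 4 lists of signalling genes, those of the BMP and FGF pathways lay mostly on the lower side, with negative differences in 18 of 22 and 16 of 20 members. Among all genes tested, 46.8% had a positive difference. Of 22 genes of the BMP, Nodal and TGF-beta pathway 6 were lower and 0 higher at an unadjusted p under 0.05. The background, here and for the FGF, Wnt and Notch lists, was 4.50% lower and 8.52% higher. In 12 genes of the BMP list the double knockout libraries lay wholly below the KAT6B knockout libraries (background 9.13%), and the median was -0.515. With only the 6 libraries compared in the fit, 11 were lower. The ligand gene Bmp4 was at 6.69, 7.56 and 8.59 CPM against 14.6, 12.3 and 13.8 CPM (-0.84 ± 0.18, adjusted p = 0.0742). Bmp2 and Bmp7 differed by -0.61 and -0.64, and the feedback inhibitors Smad6 and Bambi, themselves BMP targets, by -0.75 and -1.11. Of 20 FGF pathway genes 5 were lower and 0 higher, among them the ligand genes Fgf15 (-1.72 ± 0.41), Fgf10 (-0.92 ± 0.28) and Fgf3 (-0.89 ± 0.30), all at low levels. In the FGF pathway 3 genes were lower without double knockout replicate 1 or replicate 3. The Wnt list held 4 lower and 2 higher genes of 24. In it Sfrp1, a secreted antagonist, was at 33.1, 25.7 and 95.2 CPM in the double knockout against 192, 182 and 174 CPM (-1.83 ± 0.61, adjusted p = 0.239), with replicate 3 well above its 2 replicates. Without double knockout replicate 2, 2 Wnt genes were lower, and without any 1 of the 6 libraries compared 0 or 1 was higher. The Notch list held 2 higher and 2 lower genes of 18, and 1 or 2 in each direction without any 1 of those libraries. The Wnt and Notch medians were -0.096 and -0.151, and 0.0148 and 0.171 without KAT6B knockout replicate 1.

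Mesenchymal and neural crest genes did not share 1 direction. Among 20 fibrillar collagen and mesenchyme genes, 3 were higher (Col1a2, Col6a1 and Col6a2) and 5 lower, the last including the transcription factors Twist1 (-0.73 ± 0.25), Twist2 (-1.82 ± 0.66) and Snai2 (-1.04 ± 0.37). Without double knockout replicate 1 or replicate 2, 2 of the list were lower, and without KAT6B knockout replicate 1, 3 were. Of 17 neural crest and sensory neuron genes 5 were higher and 0 lower. For both lists the background was 8.52% higher and 4.50% lower. Sox10, the defining factor of crest-derived glia, was at 10.0, 14.3 and 8.35 CPM against 2.06, 2.97 and 4.78 CPM (1.73 ± 0.31, adjusted p = 0.0622). The 2 members of the neural crest list with the highest mean CPM were Ets1 and Erbb3. Over the 19 alternative settings they differed by -0.716 to -0.382 and by 0.26 to 0.572, with 0 calls. Foxf1, a factor of splanchnic mesoderm, was at 14.4, 5.19 and 30.0 CPM in the double knockout and 94.1, 62.0 and 80.6 CPM in the KAT6B knockout (-2.25 ± 0.91, adjusted p = 0.322).

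In 2 of the 3 neural lists the sign of the median turned when 1 library was left out. For the counts in this paragraph the background in the main fit was 8.52% higher and 4.50% lower. The 20 neural progenitor genes had a median of -0.241, with 0 higher and 1 lower at an unadjusted p under 0.05, and the median was 0.546 without KAT6B knockout replicate 1 and 0.0625 without double knockout replicate 3. The 27 genes of neural tube patterning had a median of -0.324, and of 0.288 without KAT6B knockout replicate 1; 4 were higher and 5 lower, and 2 and 2 without double knockout replicate 2. Without double knockout replicate 3 or KAT6B knockout replicate 2 or 3, 2 were higher, and without the last of these 3 were lower. The 28 proneural and neuronal genes had a median of 0.417, with 3 higher and 3 lower. Without KAT6B knockout replicate 1 the median was 0.816, with 11 higher and 2 lower. Map2, a dendritic microtubule protein gene, was at 17.1, 21.0 and 21.9 CPM against 13.1, 9.75 and 11.4 CPM (0.82 ± 0.16, adjusted p = 0.0648). The 2 members of the proneural and neuronal list with the highest mean CPM were Ncam1 and Lhx1. Over the 19 alternative settings they differed by -0.179 to 0.3 and by 0.085 to 0.711, with 0 calls. Onecut1 and Onecut2, factors of liver and neuron identity, differed by -1.28 ± 0.31 and -1.15 ± 0.32. Of 31 Hox genes measured 4 were higher, Hoxa7, Hoxb7, Hoxb9 and Hoxc9, all at a mean under 5 CPM, and 2 were lower, among them Hoxa2 (-0.61 ± 0.28); without KAT6B knockout replicate 1, 8 were higher. Of 24 retinoic acid genes 4 were higher and 5 lower, with Stra8 on one side and the receptor gene Rarb (-0.55 ± 0.19) and the reductase gene Dhrs3 (-0.50 ± 0.20) on the other. Without double knockout replicate 1 or replicate 2, 1 retinoic acid gene was lower, and without KAT6B knockout replicate 1, 2 were. Without double knockout replicate 1 or any 1 of the KAT6B knockout libraries, 2 were higher.

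Genes of contractile cells and glia were split. The background for the counts in this paragraph was 8.52% higher and 4.50% lower in the main fit. Of 20 smooth muscle, heart and SRF-YAP target genes 5 were higher and 1 was lower, and the heart myosin genes lay on both sides: Myh6 differed by 1.45 ± 0.44 (adjusted p = 0.182), and the atrial light chain gene Myl7 was at 6.13 CPM on average in the double knockout against 14.7 CPM (-1.26 ± 0.24, adjusted p = 0.0648). Des, the muscle intermediate filament gene, was at 44.5 against 20.3 CPM (1.13 ± 0.32, adjusted p = 0.153). Without KAT6B knockout replicate 3, 2 of the list were higher, and without double knockout replicate 1, 3 were. Of 12 astrocyte and oligodendrocyte genes 4 were higher and 1, Pdgfra, was lower, and of the 4 only Sox8, a glial transcription factor gene, had a mean above 1 CPM in the double knockout (5.34 against 2.40 CPM, 1.15 ± 0.26, adjusted p = 0.0911). The primitive streak and mesoderm list held 3 higher and 3 lower genes of 22. It held 1 lower gene without double knockout replicate 1 or without KAT6B knockout replicate 1, 0 without double knockout replicate 2, and 5 higher genes without KAT6B knockout replicate 3. Among them the Nodal antagonists Lefty1 and Lefty2 differed by 1.06 and 0.99, and T, the gene for the mesoderm factor brachyury, was under 1 CPM on average in both genotypes.

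Several lists held few or no genes at an unadjusted p under 0.05. None of the 20 naive pluripotency genes had an unadjusted p under 0.05, nor had any of 18 hypoxia and glycolysis genes or of 12 mitochondrial transcripts. The naive list was not stable: its median was 0.267, and 0.0161 to 0.688 over the 19 alternative settings. In these settings 0 to 7 naive genes were higher and 0 to 1 lower. Of 18 mitosis and DNA replication genes 1 had an unadjusted p under 0.05, and the proliferation marker Mki67 was at 714 CPM against 735 CPM on average (-0.04). Of 23 Polycomb and MLL genes 1 was higher and 0 lower. The 7 genes of the Y chromosome were not such a list, with 4 higher and 0 lower (background 8.52% and 4.50%) and a median of 0.887. Without KAT6B knockout replicate 1, 3 were higher and the median was 0.546. Kdm5d, a histone demethylase gene, was at 7.73, 13.3 and 9.33 CPM against 4.96, 4.92 and 4.37 CPM (1.09 ± 0.24, adjusted p = 0.0893). Uba1y, Usp9y and Zfy1 were also higher, and Uty, Eif2s3y and Ddx3y had negative differences. The blood and endothelium list had the lowest median, -0.523, with 1 gene lower and 1 higher of 19, and 3 lower without double knockout replicate 3.

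**Figure D4:**
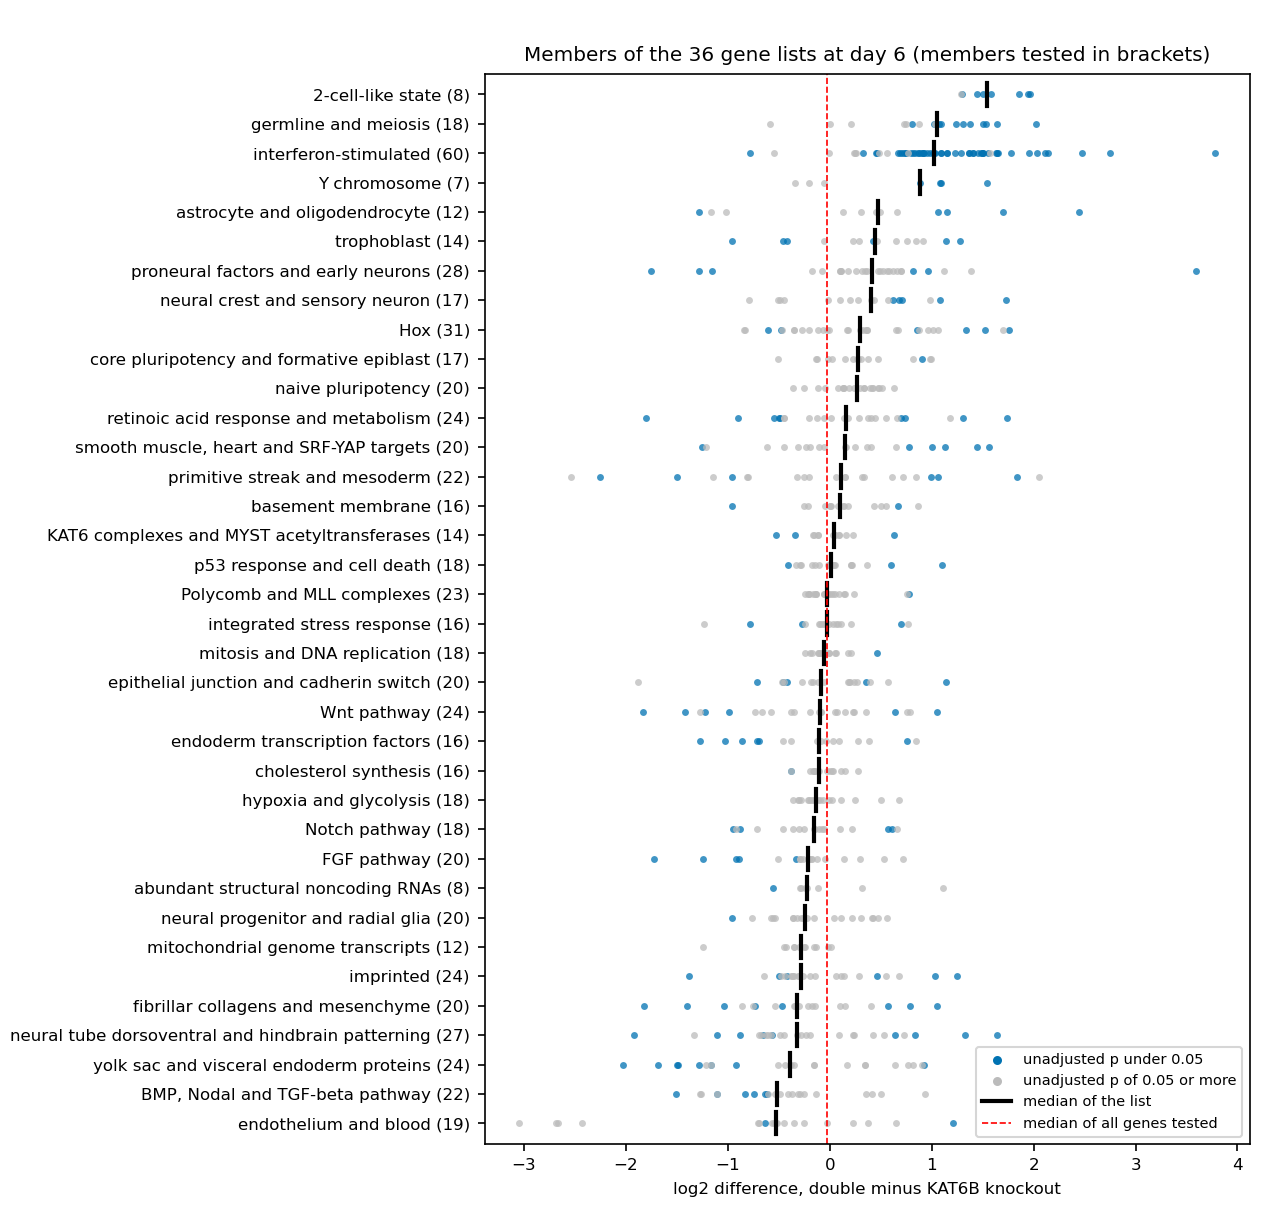
Log2 difference between double and KAT6B knockout at day 6 for the measured members of 36 gene lists, with list medians as black bars and the median of all genes, -0.025, as a dashed line. The 2-cell-like, germline and interferon-stimulated lists have medians of 1.54, 1.05 and 1.02; the BMP list and the blood and endothelium list have the lowest, -0.515 and -0.523.

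The same 2 genotypes were compared on the other days, each in a fit of its own 12 libraries. Calls numbered 12 at day 0, 2 at day 2 and 0 at day 15 (0.0634%, 0.0102% and 0% of genes tested). At day 15, where edgeR called 0 genes, 945 (4.67%) had an unadjusted p under 0.05. DESeq2 called 140, 219 and 72 genes on the 3 days. With only the 6 libraries compared in the fit, edgeR called 0 genes at day 0 and at day 2, Tmem92 and Col1a2 below included. The count at day 0 fell to 0 without KAT6B knockout replicate 1 or replicate 2, to 1 without double knockout replicate 2 and to 7 without KAT6B knockout replicate 3. The count at day 2 was 0 in 4 of the 6 fits that left out 1 library, and 5 and 7 without replicate 3 of the double and of the KAT6B knockout. Of the 10 genes named as higher at day 6, 9 had the same sign at day 0, 8 at day 2 and 5 at day 15. Tmem92 and Col1a2 rose at day 0 (1.83 ± 0.30, adjusted p = 0.0427, and 1.88 ± 0.31, adjusted p = 0.0433, edgeR): Tmem92 stood at 2.53, 2.37 and 2.77 CPM against 0.823, 0.515 and 0.816 CPM, and Col1a2 at 41.9, 63.8 and 40.3 CPM against 6.98, 18.8 and 13.7 CPM. Trim16 had groups that did not overlap at days 0 and 2 (0.52 and 1.04). Of the 10 genes named as lower, 4 of 9 tested had the same sign at day 0, 7 at day 2 and 5 at day 15. Gata4 and Gata6 had positive differences at all 3 other days, of 0.32, 0.29 and 0.46 for Gata4 and of 0.37, 0.28 and 0.41 for Gata6, with adjusted p of 0.858 to 1. At day 15 Gata4 was at 575, 540 and 597 CPM in the double knockout and at 94.3, 618 and 532 CPM in the KAT6B knockout, where replicate 1 lay far below the others. Frem2 was lower on every day (-0.71, -0.47 and -1.30 at days 0, 2 and 15), and its groups did not overlap at days 0 and 2.

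The interferon-stimulated list had medians of -0.139, -0.022 and -0.22 at days 0, 2 and 15, with 1, 4 and 0 members higher (background 3.17%, 5.02% and 1.68%) and 6, 1 and 2 lower (background 2.85%, 4.11% and 3.00%) at an unadjusted p under 0.05. The germline list had medians of 0.314, 0.503 and -0.172, and the 2-cell-like list 1.10, 0.972 and -0.45. The positive median of the 2-cell-like and germline lists was thus present from day 0 to day 6. The median of the interferon list was positive at day 6, near that of all genes at day 2 and below it at days 0 and 15. The medians of all genes were 0.00161, -0.0075 and 0.00417 at days 0, 2 and 15. Differences between days were tested gene by gene in a fit of all 48 libraries: against days 0 and 2, 0 of 22626 genes were called (1084 and 958, or 4.79% and 4.23%, had an unadjusted p under 0.05), and against day 15, 53 were (0.234%), of which 50 had the more positive difference at day 6. This count rested on single libraries. At day 6 it was 11 without KAT6B knockout replicate 1, and 13 and 28 without double knockout replicates 1 and 2. At day 15 it was 29, 15 and 141 without double knockout replicates 1, 2 and 3, and 139 without KAT6B knockout replicate 3. With only the 12 libraries compared in the fit it was 1.

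**Figure D5:**
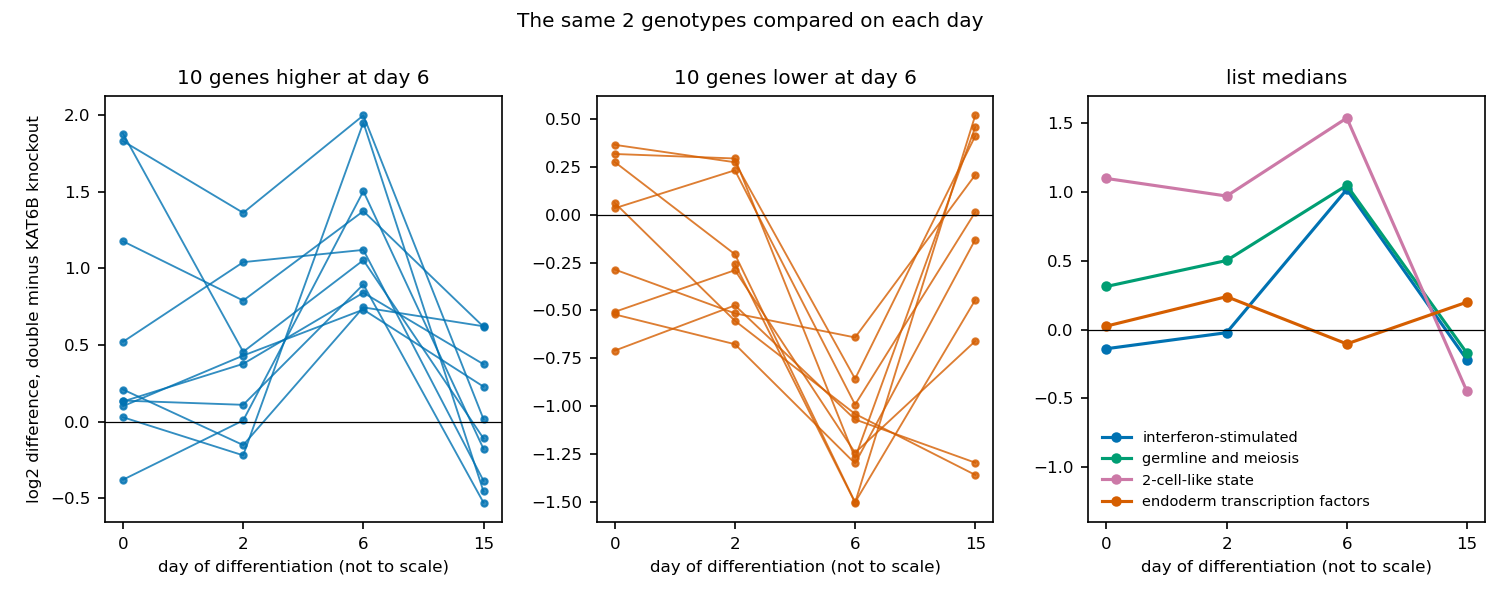
Log2 difference between double and KAT6B knockout at days 0, 2, 6 and 15 for the 10 genes higher at day 6, the 10 lower, and the medians of 4 gene lists; each line is 1 gene or list. The genes were chosen by their values at day 6; the interferon-stimulated median is 1.02 at day 6 and between -0.22 and -0.022 on the other days.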

How the data were processed

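Per the labels' protocols, ribosomal RNA was removed from the total RNA of 48 cultures and libraries were prepared with a directional kit. The authors deposited raw counts per gene from reads aligned with HISAT2 to GRCm39, per the submitters' processing notes. How reads were counted, whether strand was used, and which annotation was used are not stated here. Entries that repeat an identifier (48) were left out, which kept 36935 genes. Depth at day 6 ran from 27.27 to 57.54 M (mega) counts, and the biological coefficient of variation was 24.6%; the count model also holds counting error, which weighs most in genes under 1 CPM. The p-values measure the spread between these samples.

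The 12 libraries of day 6 were fitted together with edgeR 4.0.16 in R 4.3.3, with TMM scaling, filterByExpr on the groups (count minimum 10, total minimum 15), robust quasi-likelihood F tests and Benjamini-Hochberg adjustment over 20533 genes. A call is an adjusted p under 0.05. The script was tested on simulated data. Because fewer than 5 genes were called in each direction, the naming rule took the 10 smallest unadjusted p per direction, among genes with a symbol, non-overlapping groups and 5 CPM or more on average in the higher group. It also took Kat6a, Kat6b and, from each list, the 2 members with the highest mean CPM. Not all of these list members are given above, and other members were named after their values were seen. The comparison and the 35 gene lists (648 genes, of which 641 are in the table) were chosen with earlier results of these data known, and the interferon list was written after values of day 6 had been seen. Alternatives were RLE size factors, no filter, a minimum of 1 CPM in 3 libraries, DESeq2 1.42.0, a fit of every library of the series, a fit of the compared libraries alone, a replicate block, and leaving out each library. Some items are not reported here.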

Additional observations from a re-analysis of the deposited data

Results flagged for a closer look

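In 7 named genes the difference between double and KAT6B knockout was not the same at day 6 and at day 15, by a test of the difference between the days in edgeR's fit of all 48 libraries (53 of 22626 genes were called). These genes were named by their values at day 6, the first part of this contrast. Their values here are therefore no independent evidence. For Epb41l3 the difference was -0.64 at day 6 and 0.21 at day 15, and the tested value was -0.82 ± 0.19 (adjusted p = 0.0462, and 0.0119 to 0.681 over 17 other settings). For Oasl2, an antiviral oligoadenylate synthetase-like gene, it was 1.98 ± 0.42 (adjusted p = 0.0246, range 0.0137 to 0.557), with means of 15.5 and 21.3 CPM in the double and the KAT6B knockout at day 15. The other 4 interferon-stimulated genes among the 7 were Parp10 (1.16, adjusted p = 0.0355, range 0.021 to 0.601), Cd74 (2.97, adjusted p = 0.0355, range 0.0065 to 0.868), Ifi35 (1.52, adjusted p = 0.0227, range 0.0133 to 0.472) and Parp12 (1.21, adjusted p = 0.0343, range 0.0154 to 0.797). The cyclin gene Ccne1 differed by 1.13 (adjusted p = 0.0216, range 0.00869 to 0.432), with 0.46 at day 6 and -0.63 at day 15. Of the 17 settings, which are not independent, 4 kept the call of Epb41l3, 9 that of Parp10, 8 that of Cd74, 10 those of Oasl2 and Ifi35, 9 that of Parp12 and 13 that of Ccne1. In each of the 7 genes the lowest and the highest adjusted p lie on both sides of 0.05.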

How the results depend on the processing

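The comparison of double and KAT6B knockout at day 6 had 0 calls with RLE size factors and with the 1 CPM minimum, 96 without a filter, 654 with DESeq2, 42 with all 48 libraries in 1 fit and 19 with only the 6 libraries compared; when 1 library was left out it had 0 to 93. Why these counts differ was not tested. The 20 named genes kept their sign under all 19 alternatives, and all 20 were called without a filter, with DESeq2 and without E14 replicate 2. They had been chosen on the same counts for groups that did not overlap and a small p. The kept sign is therefore no independent evidence. The interaction had 56 calls with DESeq2 and 2 with all 48 libraries, and 0 to 1 when 1 library was left out. The difference between days 6 and 15 had 1 call with only the 12 libraries compared, and 11 to 141 when 1 library was left out.

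Replicate numbers were not used as a pairing, because the labels do not say that a number marks a shared day or batch. The correlations of same-numbered double and KAT6B knockout libraries were 0.0795, 0.0914 and -0.0959, and not every library correlated best with its own number. These correlations cover only the genotypes compared. On the first principal component replicate 3 was the highest library of E14, the KAT6A knockout and the double knockout (31.6, 18.6 and 10.5). It was the lowest of the KAT6B knockout (34.7). Whether a number marks a shared run was not tested. With the replicate block, 194 genes were called (118 higher and 76 lower), all 20 named genes among them, and the interaction had 2256 genes at an unadjusted p under 0.05.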
